A study of Homo sapiens with 15 samples.

Results

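Interferon response and class I antigen presentation genes were followed in SKOV3ip1 cells, an established line of human epithelial ovarian cancer. The members were a list of 39 genes, matched by symbol. Of these, 38 had at least 1 probe set with a single gene symbol, out of 19775 genes on the array, and the remaining listed gene is not analysed here. The 38 genes had 74 probe sets, and each gene was read through its brightest one, with the others as a check. Of the 38, 32 passed the brightness filter, a mean in at least 1 extract at or above the median of all probe sets (log2 6.60). IFI44, IFI44L, IFIH1, OAS1, XAF1 and TRIM22 did not.

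The 5 groups were all cultured for 7 days. The no folate culture had medium lacking folate. The other 4 had folic acid added, at 2 to 10 nM (the unit is spelled nm by the submitters), while the sample titles abbreviate the folate source as MTF or 5-MTF. Of these 4, 1 received the antibody labelled 003, 1 the antibody labelled MORAb003 (MORAb0003 in its titles) and 1 the control antibody 004, each for 24 hours, and the folate culture received no antibody. Whether 003 and MORAb003 are one antibody is not stated. Each group was a single culture giving 1 RNA extract, of which 3 aliquots were hybridised, for 15 arrays. The p-values therefore measure the error of hybridising aliquots and compare extracts, not the spread between cultures. In bulk RNA of this kind, fewer expressing cells and less RNA per cell cannot be told apart.

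Interferons secreted by infected or stimulated cells bind surface receptors and activate the complex ISGF3, whose DNA-binding subunit is IRF9. ISGF3 binds the interferon-stimulated response element in the promoters of antiviral genes, among them the IFIT, OAS and MX families. Interferon also raises the machinery of class I antigen presentation. Immunoproteasome subunits cut proteins into peptides, TAP1 and TAP2 carry the peptides into the endoplasmic reticulum, and the peptides are loaded onto HLA heavy chains paired with B2M.

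The members' RefSeq promoter windows (GRCh38.p14, 250 bases before to 50 after the start site) were searched on both strands for GAAA, any 2 bases and GAAA, the core of the interferon-stimulated response element. The search describes the list, which was made up of interferon response and class I genes, and is no result of the arrays. Windows were at hand for 30 of the 38 genes. A match lay in at least 1 window of 21 of these, or 70%, against 4.38% of all 27305 genes with a window, and 3.57% of all 35116 windows counted singly. TTC, any 3 bases and GAA, the core of the gamma-activated site, was matched in 10 of 30 genes (33.3%), against 9.38% of all genes with a window and 7.66% of single windows. Matches of one motif may overlap each other, and a gene with several windows was counted once if any held a match. The stretches below are upstream of the start site on the gene's strand, with the response element core in capitals. They are shown for 3 genes that were lower and 3 that were higher in the 003 than in the MORAb003 extract.
IFIT1, chr10:89392487-89392549, + strand: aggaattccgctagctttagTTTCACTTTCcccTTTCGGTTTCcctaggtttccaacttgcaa
B2M, chr15:44711353-44711408, + strand: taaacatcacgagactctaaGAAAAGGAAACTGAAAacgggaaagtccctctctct
IFI6, chr1:27672319-27672368, - strand: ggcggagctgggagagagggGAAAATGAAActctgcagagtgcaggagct
ISG15, chr1:1013364-1013419, + strand: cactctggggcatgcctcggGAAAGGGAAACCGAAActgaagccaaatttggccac
BST2, chr19:17405725-17405780, - strand: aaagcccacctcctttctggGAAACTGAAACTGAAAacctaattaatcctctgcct
PSMB10, chr16:67936851-67936891, - strand: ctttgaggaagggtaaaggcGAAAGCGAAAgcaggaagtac
In IFIT1 the core is in the reverse orientation and occurs in 2 separate copies. In B2M, ISG15 and BST2, 2 copies overlap. Of the 11 members called between the 003 and MORAb003 extracts, 10 had a window and 8 of those held a match, with none in IRF9 and HLA-B. Of the 27 not called, 20 had a window and 13 of those held a match.

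The arrays were not equal in quality. For actin, the 3′ minus 5′ gap in signal, which grows as RNA becomes shorter, averaged log2 4.09 ± 0.16 without folate (SD, n = 3 arrays), 4.02 ± 0.10 with 003, 2.42 ± 0.13 with MORAb003, 3.46 ± 0.31 with 004 and 3.24 ± 0.13 with folate. Replicate 1 of the 004 extract stood apart: it correlated with its own extract at 0.95 at most, against 0.993 to 0.998 among arrays of the other extracts, and its 90th percentile was log2 9.04, against 9.58 to 9.88 on all other arrays. It enters every comparison through the shared error, so results are given with and without it. The 003 and MORAb003 arrays also differed in distribution. Their 90th percentiles were log2 9.58 to 9.71 with 003 and 9.83 to 9.88 with MORAb003, and their medians 6.61 to 6.66 and 6.53 to 6.54. Counts after quantile normalization, which gives every array the same distribution, are given below for MORAb003 against 003 and against 004. Of 11 epithelial and ovarian cancer markers, 10 lay at or above the median of all probe sets in every extract. Of 9 leukocyte markers, 4 lay at or above it in every extract, all from among CD3D, CD3E, CD2, CD79A and ITGAM. PTPRC, MS4A1, CD14 and CSF1R lay below it in every extract. The list's summed linear level was 973 without folate, 1010 with 003, 916 with MORAb003, 1070 with 004 and 947 with folate. Of 8 fibroblast and endothelial markers, 5 lay at or above the median in every extract and COL3A1 and KDR below it, with summed levels of 1600 without folate, 1750 with 003, 1400 with MORAb003, 1580 with 004 and 1540 with folate. The part of these marker levels in the results was not tested.

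Calls needed both a change of 1.5-fold or more and a limma p under 0.05 after Benjamini-Hochberg adjustment over the 14369 genes tested. Of the 32 members tested, 12 were called in at least 1 of 7 comparisons and 20 in none. The matching share of all genes over the 7 comparisons is not given here. The comparison of 003 with MORAb003 alone called 25.4% of all genes. The most calls, 11 members, fell between the 003 and MORAb003 extracts, with 3 higher and 8 lower in 003. The percentage called there was 34.4% of members and 25.4% of all genes (7.79% higher, 17.6% lower). Between the MORAb003 and 004 extracts 7 members were higher and 1 was lower in MORAb003, against 17.6% and 2.32% of all genes (19.9% either way). After quantile normalization, with 33 members tested, 4 were higher and 5 lower for 003 against MORAb003, against 11.4% and 14% of all genes. For MORAb003 against 004, 5 were then higher and 3 lower, against 11.7% and 6.63% of all genes. Of the 28 differences called over the 7 comparisons on the deposited values, 6 were not called after quantile normalization, with no sign changed. Only those of IFI6 and IRF9 are named below, so a call given for another member may also be lost there. Between the MORAb003 and folate extracts 2 members were higher and 1 lower, against 4.77% and 1.81% of all genes (6.58% either way).

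The other comparisons moved few members. Without folate, 1 member was higher and 1 lower than with folate, against 0.905% and 1.8% of all genes (2.71% either way). In the 003 extract 1 was higher and 1 lower than in the folate extract, against 0.431% and 1.59% of all genes (2.02% either way). It had 2 higher and 0 lower than the 004 extract, against 3.07% and 0.397% (3.47% either way). Between the 004 and folate extracts limma called 0 members and 0% of all genes. At an unadjusted p under 0.05, 2 of the 32 members (6.25%) differed there, against 8.88% of all genes. Without replicate 1 of the 004 extract it was also 2, against 3.35% of all genes.

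Without that array, 11 members were called between 003 and MORAb003 (26.3% of all genes), 4 between MORAb003 and 004 (12.2% of all genes) and 4 between MORAb003 and folate (10.2% of all genes). Between no folate and folate 2 members were called (6.42% of all genes), between 003 and 004 there were 3 (6.24%), and between 003 and folate 3 (7.18%). Between 004 and folate 0 were called (0% of all genes). Dropping the array left more genes called against folate and fewer for MORAb003 against 004. The median member difference was 0.11 (log2) for 003 minus MORAb003, where all genes had 0.09. It was 0.06 for MORAb003 minus folate, where all genes had -0.04, and 0.02 for no folate minus folate, where all genes had 0.01. The comparisons share extracts and so are not independent of each other.

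**Figure D1:**
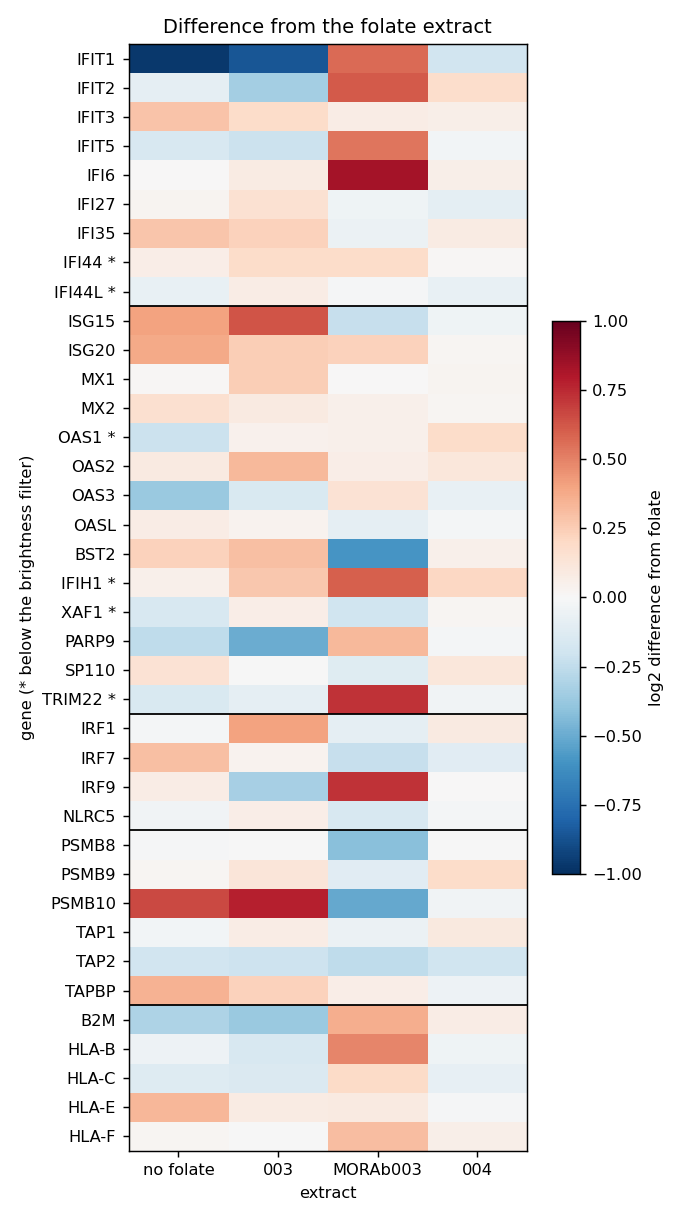
Log2 difference of each extract mean (columns) from the folate extract for the 38 genes (rows), grouped by role from the IFIT and IFI genes at the top to class I at the bottom, red higher and blue lower, with replicate 1 of the 004 extract left out of its mean. The no folate, 003 and MORAb003 columns each hold both colours. With MORAb003, IFI6 is at 0.83 and BST2 at -0.59. IFIT1 is at -0.97 without folate and -0.85 with 003, and PSMB10 at 0.66 and 0.78.

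IFIT1, which binds foreign RNA lacking host cap marks, had the largest difference of any member in any comparison, between 003 and MORAb003. It read log2 8.05, 8.18 and 8.35 without folate, 8.42, 8.17 and 8.32 with 003, 9.80, 9.71 and 9.65 with MORAb003, 8.08, 8.94 and 9.0 with 004 and 9.41, 8.99 and 9.08 with folate. The MORAb003 arrays lay above all others, and the no folate and 003 arrays lay below all folate arrays. IFIT1 fell by 0.97 without folate against folate (SE 0.20, limma adjusted p = 0.0175) and by 0.85 with 003 against folate (SE 0.20, adjusted p = 0.0379). It was lower with 003 than with MORAb003 by -1.42 (SE 0.20, adjusted p = 0.000136) and higher with MORAb003 than with 004 by 1.05 (SE 0.20, adjusted p = 0.0022). Without replicate 1 of the 004 extract the last difference was 0.75 (adjusted p = 0.000109), and 003 was then also lower than 004, by -0.66 (adjusted p = 0.000741). The call against folate was lost for no folate when no folate replicate 1 or 2 or folate replicate 1 or 3 was left out (adjusted p up to 0.119). For 003 against folate it was lost when any no folate, 003, MORAb003 or folate array was left out (adjusted p up to 0.219).

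IFIT2 and IFIT5, relatives of IFIT1 that also bind RNA, were likewise highest with MORAb003. IFIT2 read 7.87, 8.02 and 8.18 without folate, 7.81, 7.64 and 7.87 with 003, 8.73, 8.89 and 8.58 with MORAb003, 7.26, 8.26 and 8.31 with 004 and 8.29, 7.93 and 8.13 with folate. IFIT5 read 8.81, 8.85 and 9.02 without folate, 8.84 on each 003 array, 9.65, 9.68 and 9.43 with MORAb003, 7.69, 9.0 and 9.06 with 004 and 9.21, 8.96 and 8.99 with folate. For both, all MORAb003 arrays lay above all others. The 003 minus MORAb003 difference was -0.96 for IFIT2 (SE 0.22, limma adjusted p = 0.00356) and -0.75 for IFIT5 (SE 0.26, adjusted p = 0.0314). That call of IFIT5 was lost when any 003 array or MORAb003 replicate 1 or 2 was left out (adjusted p up to 0.0911). Against 004, IFIT2 rose by 0.79 (adjusted p = 0.0156) and IFIT5 by 1.01 (adjusted p = 0.011) with MORAb003, and both calls were lost without replicate 1 of the 004 extract, at 0.44 and 0.56. That of IFIT2 was also lost without MORAb003 replicate 2 (adjusted p up to 0.0629 over the arrays left out).

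Their other probe sets did not show the difference. The second probe set of IFIT2 differed by 0.06 and that of IFIT5 by -0.03 between the 003 and MORAb003 means. For IFIT3, a partner of IFIT1 and IFIT2, the brightest probe set differed by 0.11 and the second one by -0.67. That second probe set averaged 8.40 with MORAb003 and 7.53 with folate, while the brightest differed by 0.07 between them.

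IFI6, a small membrane protein linked to resistance to cell death, was higher in the MORAb003 extract than elsewhere. It read 8.13, 8.03 and 7.91 without folate, 7.99, 8.02 and 8.30 with 003, 8.90, 8.72 and 8.93 with MORAb003, 7.67, 8.03 and 8.13 with 004 and 7.99, 8.14 and 7.92 with folate. The MORAb003 arrays lay above all 12 others, and the other 4 extracts overlapped. IFI6 rose by 0.83 against folate (SE 0.13, limma adjusted p = 0.00203) and by 0.91 against 004 (SE 0.13, adjusted p = 0.000494), which became 0.78 when 004 replicate 1 was dropped. It was lower with 003 than with MORAb003 by -0.75 (SE 0.13, adjusted p = 0.000655). No call of IFI6 was lost when any single array was left out, though after quantile normalization the last difference was -0.58 and not called. IFI27 and IFI35, also interferon targets, were called in no comparison.

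**Figure D2:**
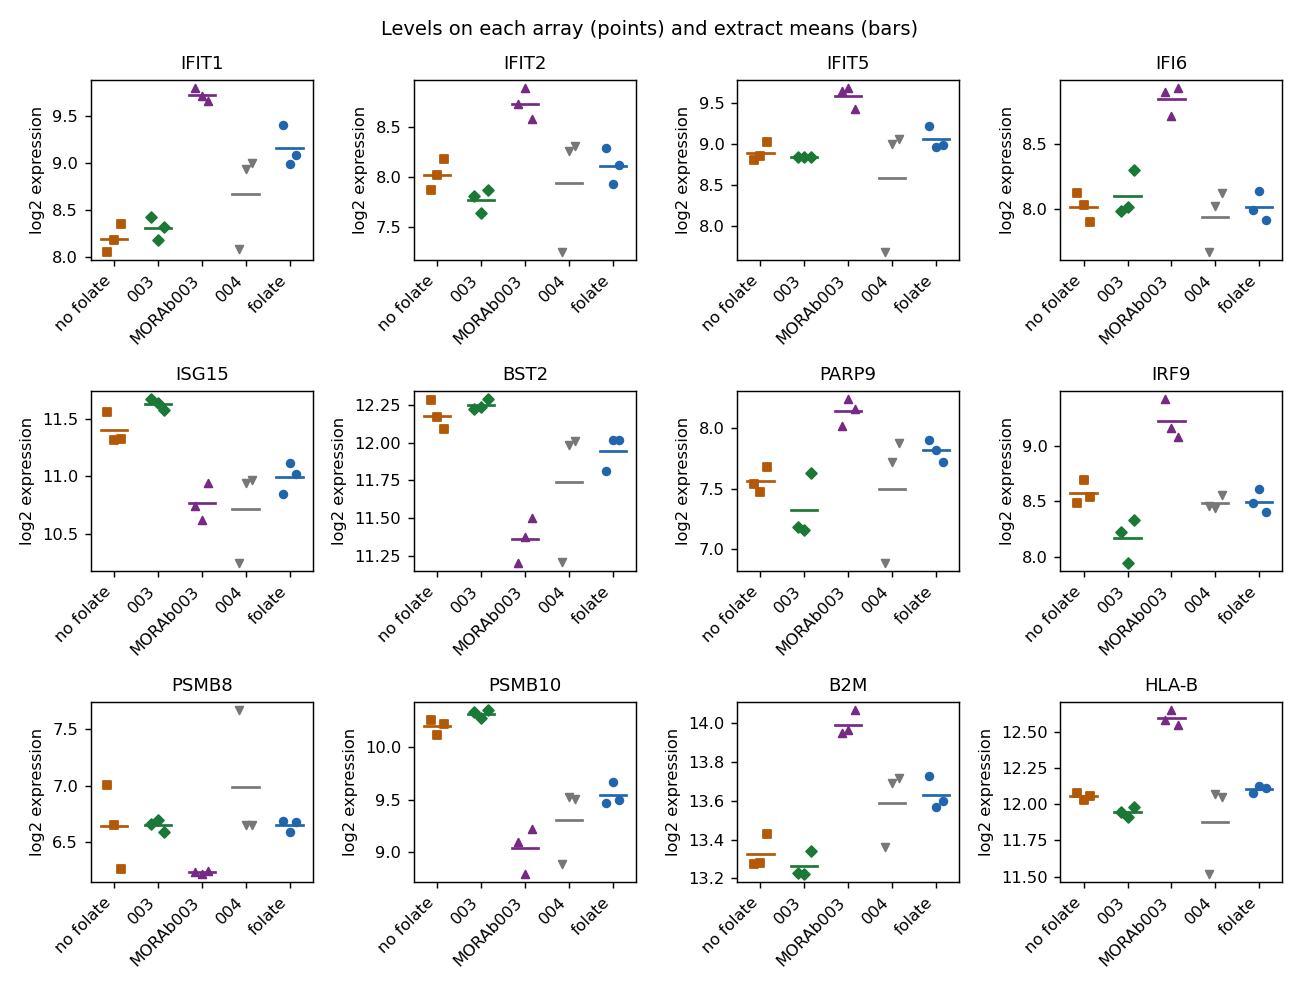
Log2 expression on each of the 15 arrays (points) and extract means (horizontal bars) for the 12 members called in at least 1 comparison, 1 panel per gene with its own vertical scale. MORAb003 arrays lie above all others for IFIT1, IFIT2, IFIT5, IFI6, PARP9, IRF9, B2M and HLA-B, and replicate 1 of the 004 extract lies apart from the other 2 in most panels.

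Among the antiviral effectors, ISG15 and BST2 ran the opposite way. ISG15, a ubiquitin-like protein attached to other proteins, read 11.56, 11.32 and 11.32 without folate, 11.67, 11.63 and 11.58 with 003, 10.74, 10.62 and 10.95 with MORAb003, 10.25, 10.94 and 10.96 with 004 and 10.85, 11.12 and 11.02 with folate. The 003 and no folate arrays lay above those of the other 3 extracts. ISG15 was higher with 003 than with MORAb003 by 0.86 (SE 0.17, limma adjusted p = 0.00125) and higher with 003 than with 004 by 0.91 (SE 0.17, adjusted p = 0.0128). Without replicate 1 of the 004 extract the difference from 004 was 0.67 and still called, and the difference of 0.63 between 003 and folate, with an adjusted p of 0.0583 on all arrays, was called as well (adjusted p = 0.000133). The call against 004 was lost without 003 replicate 1 or 2 (adjusted p up to 0.067).

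BST2, or tetherin, holds budding viruses at the cell surface. It read 12.28, 12.17 and 12.09 without folate, 12.22, 12.24 and 12.29 with 003, 11.20, 11.37 and 11.50 with MORAb003, 11.21, 11.99 and 12.01 with 004 and 11.81, 12.02 and 12.01 with folate. The MORAb003 arrays lay below every array outside replicate 1 of the 004 extract. BST2 was higher with 003 than with MORAb003 by 0.89 (SE 0.17, limma adjusted p = 0.0012). It fell by 0.59 with MORAb003 against folate (SE 0.17, adjusted p = 0.0427), a call lost when any array outside the 004 extract was left out (adjusted p up to 0.163). Against 004 it differed by -0.38 (adjusted p = 0.0978), and fell by 0.64 without replicate 1 of the 004 extract (adjusted p = 7.34e-05).

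PARP9, which acts with the ubiquitin ligase DTX3L, read 7.54, 7.48 and 7.68 without folate, 7.18, 7.16 and 7.63 with 003, 8.02, 8.24 and 8.16 with MORAb003, 6.89, 7.72 and 7.88 with 004 and 7.90, 7.82 and 7.72 with folate. All 3 MORAb003 arrays exceeded the rest. PARP9 was lower with 003 than with MORAb003 by -0.82 (SE 0.21, limma adjusted p = 0.00611) and rose by 0.65 with MORAb003 against 004 (adjusted p = 0.0271). The call against 004 was lost without replicate 1 of the 004 extract, at 0.34, or without any MORAb003 array (adjusted p up to 0.0895 over these). The second probe set of PARP9 differed by -0.08 between the 003 and MORAb003 means. The starts of PARP9 and DTX3L lie 38 bases apart in RefSeq, on opposite strands of chromosome 3. DTX3L differed by -0.07 between 003 and MORAb003 (adjusted p = 0.825).

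The MX GTPases, the OAS enzymes that sense double-stranded RNA, the exonuclease ISG20 and the nuclear body protein SP110 were not called. MX1 differed by 0.25 between 003 and MORAb003 (SE 0.12, limma adjusted p = 0.108) and by 0.01 between no folate and folate (adjusted p = 0.984). OAS3 differed by -0.37 and ISG20 by 0.38 between no folate and folate, the lowest and highest of the 20 members never called, with adjusted p-values of 0.155 and 0.11. Over those 20, differences ran from -0.33 (HLA-C) to 0.50 (IRF1) for 003 minus MORAb003, from -0.25 (TAP2) to 0.31 (HLA-F) for MORAb003 minus folate, and from -0.21 (TAP2) to 0.40 (IRF1) for 003 minus folate.

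Of the members that failed the brightness filter, TRIM22, an antiviral ubiquitin ligase, read 4.61, 4.96 and 4.84 without folate, 4.84, 4.96 and 4.78 with 003, 5.72, 5.74 and 5.55 with MORAb003, 4.86, 4.85 and 4.98 with 004 and 4.99, 4.94 and 4.92 with folate. All MORAb003 values were above the others, yet all lay under the median of all probe sets, where values may be mostly background. Fitted with no filter, TRIM22 was higher with MORAb003 than with folate by 0.72 (SE 0.10, limma adjusted p = 0.000976). IFIH1, an RNA sensor also called MDA5, differed by 0.60 (SE 0.17, adjusted p = 0.0476) in the same fit. TRIM22 and IFIH1 are named because their values were seen, not by a rule set earlier.

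Of the transcription factors, IRF9, the DNA-binding subunit of ISGF3, was highest with MORAb003 and lowest with 003. It read 8.49, 8.69 and 8.53 without folate, 8.23, 7.94 and 8.33 with 003, 9.42, 9.16 and 9.08 with MORAb003, 8.46, 8.44 and 8.56 with 004 and 8.48, 8.61 and 8.40 with folate. The MORAb003 arrays lay above and the 003 arrays below all arrays of the other 3 extracts. IRF9 rose by 0.72 with MORAb003 against folate (SE 0.12, limma adjusted p = 0.00283) and by 0.74 against 004 (SE 0.12, adjusted p = 0.0011), which became 0.72 when 004 replicate 1 was dropped. It was lower with 003 than with MORAb003 by -1.06 (SE 0.12, adjusted p = 3.75e-05). These calls held when any single array was left out, while the difference from 004 was 0.42 and not called after quantile normalization. With 003 IRF9 differed by -0.33 from folate (SE 0.12, adjusted p = 0.142).

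IRF1, a factor that drives interferon gamma targets, read 8.14, 8.06 and 8.15 without folate, 8.54, 8.58 and 8.51 with 003, 8.05, 8.07 and 8.02 with MORAb003, 7.02, 8.20 and 8.26 with 004 and 8.16, 8.13 and 8.13 with folate. The 003 arrays lay above all others. No difference of IRF1 was called. That between 003 and folate was 0.40 (SE 0.23, limma adjusted p = 0.321), or SE 0.06 and adjusted p = 0.000153 without replicate 1 of the 004 extract, still under the 1.5-fold minimum. IRF7, a factor that drives interferon genes, and NLRC5, the activator of class I genes, were not called either.

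The largest difference above 0 among the members was that of PSMB10, an inducible catalytic subunit of the immunoproteasome. It read 10.26, 10.12 and 10.23 without folate, 10.34, 10.28 and 10.36 with 003, 9.10, 8.79 and 9.21 with MORAb003, 8.88, 9.52 and 9.50 with 004 and 9.47, 9.67 and 9.49 with folate. The no folate and 003 arrays lay above all arrays of the other 3 extracts. PSMB10 rose by 0.66 without folate (SE 0.16, limma adjusted p = 0.0345), by 0.78 with 003 against folate (SE 0.16, adjusted p = 0.0222) and by 1.02 with 003 against 004 (SE 0.16, adjusted p = 0.0098), which became 0.81 when 004 replicate 1 was dropped. It was higher with 003 than with MORAb003 by 1.29 (SE 0.16, adjusted p = 5.38e-05). The no folate call was lost when any no folate, 003 or folate array or MORAb003 replicate 1 was left out (adjusted p up to 0.165). The 003 call against folate was lost without any 003 array or folate replicate 1 or 3 (adjusted p up to 0.135), and that against 004 without 003 replicate 1 (adjusted p = 0.0636).

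For the other inducible subunits, the difference between 003 and MORAb003 was 0.41 for PSMB8 (limma adjusted p = 0.155) and 0.24 for PSMB9 (adjusted p = 0.168). Without replicate 1 of the 004 extract the adjusted p-values were 0.00733 and 0.00905, still under the fold minimum. PSMB8 read 7.00, 6.65 and 6.26 without folate, 6.66, 6.69 and 6.59 with 003, 6.24, 6.22 and 6.24 with MORAb003, 7.67, 6.65 and 6.65 with 004 and 6.68, 6.59 and 6.67 with folate, close to the brightness filter. It fell by 0.76 with MORAb003 against 004 (SE 0.23, limma adjusted p = 0.0218), a call that rested on replicate 1 of the 004 extract, without which it differed by -0.42. That call was also lost without any MORAb003 array (adjusted p up to 0.0633 over the arrays left out). PSMB9 read 8.33, 8.19 and 8.38 without folate, 8.48, 8.38 and 8.35 with 003, 8.11, 8.15 and 8.24 with MORAb003, 7.89, 8.47 and 8.46 with 004 and 8.23, 8.25 and 8.36 with folate, and was not called.

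TAP1, the transporter subunit whose start lies 488 bases from that of PSMB9 on the opposite strand of chromosome 6, read 9.17, 9.14 and 9.11 without folate, 9.28, 9.16 and 9.28 with 003, 9.05, 9.12 and 9.17 with MORAb003, 8.47, 9.29 and 9.24 with 004 and 9.20, 9.15 and 9.16 with folate. Outside replicate 1 of the 004 extract its arrays spanned a narrow range, and its difference between 003 and MORAb003 was 0.13 (SE 0.16, limma adjusted p = 0.542). TAP2, its partner, and TAPBP, which bridges the transporter to class I molecules, were not called. Another probe set of TAP2 averaged 7.41 with 003, 8.17 with MORAb003 and 7.6 with folate, where the brightest one differed by 0.05 between 003 and MORAb003.

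**Figure D3:**
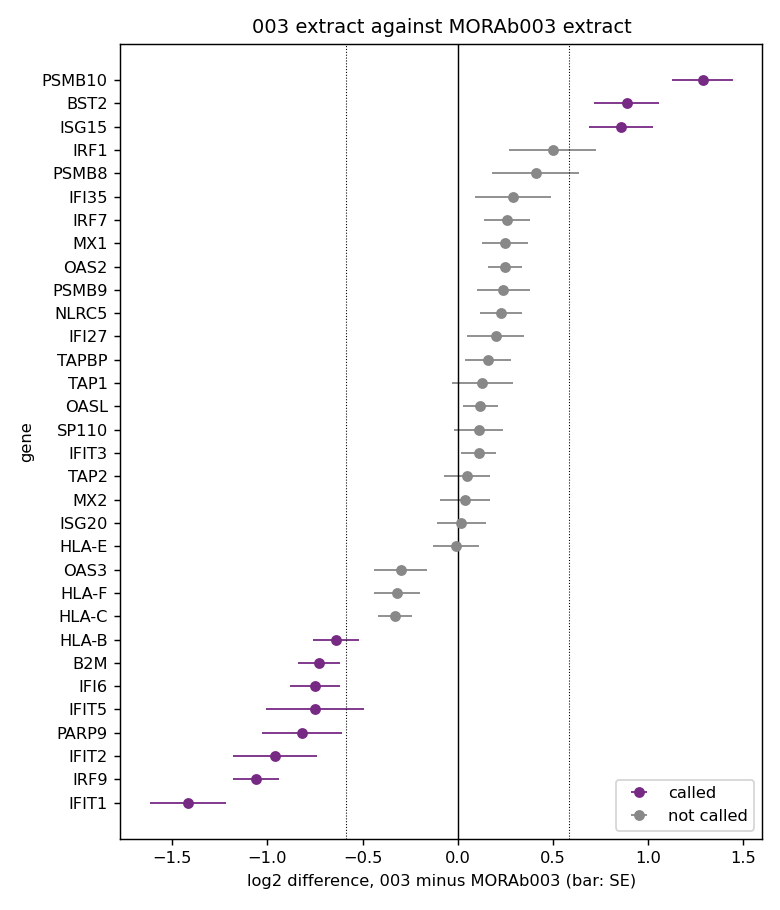
Log2 difference between the 003 and MORAb003 extracts (horizontal axis, positive higher in 003; bars are SE from limma) for the 32 members tested, sorted by size, with dotted lines at 1.5-fold. PSMB10 at 1.29, BST2 and ISG15 lie to the right and 8 genes led by IFIT1 at -1.42 to the left, with the 21 others in between.

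Among the class I genes, B2M and HLA-B were lower with 003 than with MORAb003, and HLA-C, HLA-E and HLA-F were not called. B2M, the light chain shared by all class I molecules, read 13.27, 13.28 and 13.43 without folate, 13.23, 13.22 and 13.34 with 003, 13.95, 13.96 and 14.07 with MORAb003, 13.36, 13.69 and 13.72 with 004 and 13.73, 13.57 and 13.60 with folate. The MORAb003 arrays lay above all others and the 003 and no folate arrays below all folate arrays. B2M was lower with 003 than with MORAb003 by -0.73 (SE 0.11, limma adjusted p = 0.000204). With MORAb003 it differed from folate by 0.36 (adjusted p = 0.0468) and from 004 by 0.40 (adjusted p = 0.0133), both under 1.5-fold. A second probe set of B2M averaged 11.33 with 003, 12.93 with MORAb003 and 11.99 with folate, a 003 minus MORAb003 difference of -1.60.

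HLA-B, a classical class I heavy chain, read 12.08, 12.03 and 12.06 without folate, 11.94, 11.91 and 11.98 with 003, 12.58, 12.65 and 12.54 with MORAb003, 11.52, 12.07 and 12.05 with 004 and 12.08, 12.12 and 12.11 with folate. Every MORAb003 array exceeded the rest. HLA-B was lower with 003 than with MORAb003 by -0.64 (SE 0.12, limma adjusted p = 0.00117) and rose by 0.71 with MORAb003 against 004 (SE 0.12, adjusted p = 0.00139), or by 0.53 and under the fold minimum without replicate 1 of the 004 extract. Its other probe sets gave -1.04 and -0.90 for 003 minus MORAb003. The probe sets of HLA-B, HLA-C, HLA-E and HLA-F used here are of the _x_at kind, which can also bind related transcripts, so these genes may share signal.

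HLA-C and HLA-F followed at smaller sizes. HLA-C differed by -0.33 (limma adjusted p = 0.00787) and HLA-F by -0.32 (adjusted p = 0.0462) between 003 and MORAb003, under the fold minimum, with all MORAb003 arrays above all others. HLA-E, a ligand of receptors on natural killer cells, differed by -0.01 between 003 and MORAb003 (adjusted p = 0.971) and by 0.33 between no folate and folate (adjusted p = 0.151). In all, 10 of 32 members (31.2%) had every MORAb003 array above every other array, against 20.4% of all genes tested. With every MORAb003 array below the rest there was PSMB8 (3.12%), against 10.2% of genes. Without replicate 1 of the 004 extract BST2 and PSMB10 joined it, at 9.38% of members and 19.5% of genes.

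The directions of several members ran with the actin gap of their arrays. The gap was 4.02 with 003 and 2.42 with MORAb003, and the no folate extract, at 4.09, stood with 003 for IFIT1, B2M, ISG15, BST2 and PSMB10. For IFI6 the extract means were 8.02 without folate, 8.10 with 003, 7.94 with 004 and 8.02 with folate, across gaps of 4.09, 4.02, 3.46 and 3.24, and 8.85 with MORAb003. IRF9 averaged 8.57 without folate and 8.17 with 003 at similar gaps. The part of RNA quality in these differences was not tested, and it cannot be told apart from the culture, since each condition was 1 extract.

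**Figure D4:**
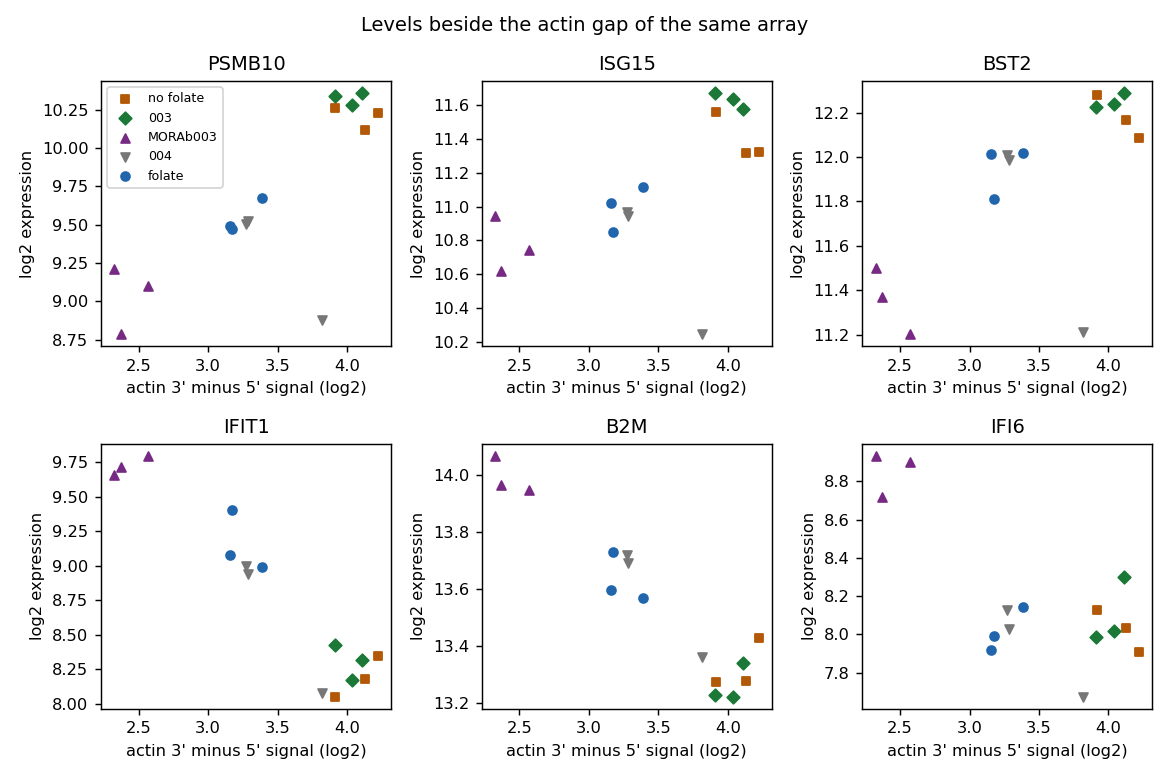
Log2 expression (vertical axis) of 6 members against the actin 3′ minus 5′ signal (log2, horizontal axis) of the same array, 15 points a panel, marked by extract. Outside replicate 1 of the 004 extract, levels of PSMB10, ISG15 and BST2 are highest and those of IFIT1 and B2M lowest where the gap is near 4. That array, at a gap of 3.82, reads 8.88 for PSMB10, 10.25 for ISG15 and 11.21 for BST2, and for IFI6 the MORAb003 arrays alone stand apart.

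Other genes of the pathway, in 5 lists, were counted in the same fit. With MORAb003 against folate, 4.77% of all genes were higher and 1.81% lower. Without folate against folate these shares were 0.905% and 1.8%, and with 003 against folate 0.431% and 1.59%. Whether a list differed from all genes was not tested. Of 17 ligands, receptors and signalling genes tested, 2 were higher with MORAb003 than with folate and 0 lower: IFNGR1, a chain of the interferon gamma receptor, rose by 0.76 (limma adjusted p = 0.044), and IRF2, a repressor of interferon targets, rose by 1.18 (adjusted p = 0.00444). Between 003 and MORAb003, 0 were higher and 5 lower, against 7.79% and 17.6% of all genes. Among the 5 were IRF2 at -1.71, IFNGR1 at -1.24 and the kinase JAK2 at -0.77. IRF2 passed the brightness filter only through the MORAb003 extract, where it averaged 7.54. It averaged 6.05 without folate, 6.37 with folate, 5.83 with 003 and 6.07 with 004. These lie under the filter, where values may be mostly background, so the sizes of its differences are uncertain. Without folate, and with 003 against folate, 0 of the 17 were called.

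Of 17 other interferon targets, 2 were higher and 1 lower with MORAb003 than with folate, against 4.77% and 1.81% of all genes. IFITM1, which blocks viral entry, rose by 0.85 (limma adjusted p = 0.00803), CMPK2, a mitochondrial nucleotide kinase, rose by 0.95 (adjusted p = 0.0106), and SAMHD1, which degrades the nucleotides viruses need, fell by 0.91 (adjusted p = 0.00215). CMPK2, like IRF2, passed the brightness filter only through the MORAb003 extract, at 6.82. It averaged 5.81 without folate, 5.87 with folate, 5.86 with 003 and 5.65 with 004, where values may be mostly background. Without folate, and with 003 against folate, 0 of these 17 targets were called. Of 9 sensing genes, 1 was higher and 1 lower without folate, against 0.905% and 1.8% of all genes. MAVS, the adaptor of RNA sensors, rose by 0.61 (limma adjusted p = 0.0213), and the kinase TBK1 fell by 0.83 (adjusted p = 0.038). Between 003 and MORAb003, 1 was higher and 2 lower, against 7.79% and 17.6% of all genes. The kinase IKBKE was at 0.74 and EIF2AK2, the RNA-activated kinase PKR, at -1.0.

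Of 15 other antigen presentation genes, 0 were higher and 3 lower with 003 than with MORAb003, against 7.79% and 17.6% of all genes. They were RFXAP, part of the complex that binds class I and class II promoters, at -1.62, the peptidase ERAP2 at -0.94 and the chaperone CANX at -0.68. Of 9 constitutive proteasome subunits, 3 were higher and 1 lower in that comparison, with PSMA7 at 1.10, PSMB6 at 0.81, PSMB7 at 0.72 and PSMA1 at -0.63. PSMA7 and PSMB7 were also lower with MORAb003 than with folate, at -0.97 and -0.74. PSMB6 and PSMB7 thus ran the same way as PSMB10 between 003 and MORAb003. Without folate against folate, 0 of the 9 were higher and 1 lower, with a median of -0.21, while PSMB10 rose by 0.66. With 003 against folate, 0 were called, with a median of -0.06, while PSMB10 rose by 0.78. Between 003 and MORAb003 the median difference of the 9 was 0.23, where all genes had 0.09.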

How the data were processed

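The authors deposited 1 value per probe set and array as log2 expression from Affymetrix U133 Plus 2.0 arrays, of Trizol RNA labelled as biotinylated cRNA per the labels' protocols. How they summarised and normalised the probes is not given in the sources used here; deposited log2 values ran from 4.00 to 15.52 and were used as they were. Of 54675 probe sets, 41091 non-control ones carried 1 gene symbol in the platform annotation, 1801 several and 11721 none. For 41037 of the 41091, the Entrez identifier was found in RefSeq and the symbol listed there was used.

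Each gene took its brightest probe set, by the mean of 15 arrays. limma 3.58.1 in R 4.3.3 (lmFit, eBayes) fitted 5 group means to 15 arrays with 10 residual degrees of freedom on the 14369 genes that passed the filter, and was checked on simulated data. The number of arrays, with 1 culture per condition, limits the precision.

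The members and lists were chosen with earlier results of these data known. Per-array values were given for called members (up to 14 by size) and for IFIT1, ISG15, IRF1, IRF9, TAP1, PSMB9, B2M and HLA-B whatever their values, and up to 4 called genes were named per pathway list. Alternatives were the normalization, the filter, the probe set, the fold minimum, the replicate number or array date as a block, the arrays fitted, array weights and leaving out single arrays. TRIM22 and IFIH1, the other probe sets and the neighbour DTX3L were named after their values were seen. Some genes are not reported here.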

Additional observations from a re-analysis of the deposited data

Results flagged for a closer look

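For 11 members the difference from the 004 extract was not the same with 003 and with MORAb003, by the direct limma test between those extracts, whose error estimate is shared with all arrays. The 003 minus MORAb003 differences (log2) were -1.42 for IFIT1, -0.96 for IFIT2, -0.75 for IFIT5, -0.75 for IFI6, -1.06 for IRF9, -0.73 for B2M, -0.64 for HLA-B and -0.82 for PARP9. They were 0.86 for ISG15, 0.89 for BST2 and 1.29 for PSMB10. Adjusted p-values ran from 3.75e-05 for IRF9 to 0.0314 for IFIT5. Against 004, IFIT1 differed by -0.37 with 003 and 1.05 with MORAb003, and BST2 by 0.51 with 003 and -0.38 with MORAb003. Without replicate 1 of the 004 extract these became -0.66 and 0.75 for IFIT1, and 0.25 and -0.64 for BST2.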

How the results depend on the processing

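No refit with another setting changed the sign of any of the 28 called differences, averaging of probe sets included. All 28 had the same sign within each array date, the second of which held 1 array per extract. In all 28 the arrays of the 2 extracts did not overlap, so leaving out arrays or splitting by date could not change a sign. The filter and fold minimum settings used the same differences and could not change it either. Read through single other probe sets that passed the brightness filter, 9 of 11 values kept the sign, but not all kept the size. The sign was lost for IFIT2, at 0.06 against -0.96 for 003 minus MORAb003, and PARP9, at -0.17 against 0.65 for MORAb003 minus 004. Among kept signs, IFIT5 gave -0.03 against -0.75 and PARP9 -0.08 against -0.82 for 003 minus MORAb003. For MORAb003 minus 004, IFIT5 gave 0.23 against 1.01 and IFIT2 0.09 against 0.79. Only the values of B2M and HLA-B reached 1.5-fold. The 2-fold minimum left 0 members for no folate against folate, 1 for 003 against 004, 0 for 003 against folate, 2 for MORAb003 against 004, 0 for MORAb003 against folate and 3 for 003 against MORAb003. The first array date alone (2 arrays per extract) called 0 for no folate against folate, 003 against 004, 003 against folate and MORAb003 against folate. The 6 arrays of a comparison alone called 0 for 003 against 004 and 0 for MORAb003 against 004. For MORAb003 against folate 5 members were called with quantile normalization, 5 with no filter, 5 with no fold minimum and 5 with array weights. Array weights gave 4 for MORAb003 against 004, and averaging every probe set per gene gave 7 for 003 against MORAb003. The shares of all genes behind the counts in this paragraph are not given here. Shifts in these counts therefore cannot be read as particular to the members.

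With the replicate number as a block, 1 member was called for no folate against folate and 1 for 003 against folate, and the counts of the other comparisons did not move. The numbers did not pair the arrays: deviations of same-numbered arrays correlated from -0.545 to 0.524, and 5 of 15 arrays correlated best with their own number. Leaving out single arrays gave 0 to 2 members for no folate against folate, 0 to 5 for 003 against 004, 0 to 3 for 003 against folate, 4 to 8 for MORAb003 against 004, 2 to 4 for MORAb003 against folate, 10 to 11 for 003 against MORAb003 and 0 for 004 against folate. The highest of 003 against 004, 5 members, came without 004 replicate 2, and 4 were called without 004 replicate 3. For most arrays left out, the share of all genes called is not given here, so these shifts cannot be read as particular to the members. Without 004 replicate 1, the share for no folate against folate was 6.42% of all genes, against 2.71% with all arrays. The cause of these shifts was not tested. Dim members, near or under the brightness filter, are limited by signal over background.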
